A study of Mus musculus with 12 samples.

Results

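The 10 genes described here build the central spindle and the contractile ring, the structures that part the cytoplasm of a dividing cell. They are Aurkb, Incenp, Prc1, Kif20a, Kif23, Racgap1, Ect2, Anln, Cit and Cep55. They were chosen by name, and all 10 were found under their symbol among the 47069 genes of the deposited expression table. Each of the 10 also passed the filter of a mean of at least 0.1 FPKM over the 12 libraries, where FPKM is the number of fragments per kilobase of transcript, scaled to the counted fragments of its library, so that levels can be compared between genes. Polyadenylated RNA was sequenced from mouse livers at postnatal day 14 (P14), in 4 groups of 3 libraries. WT hepatocytes were isolated from wild type mice, and Cdk1 Liv-/- hepatocytes from mice that carry Cdk1 flox/flox alleles and Albumin-Cre. The other 2 groups, WT and Cdk1 Liv-/- whole liver, are tissue of these genotypes at the same age. Albumin-Cre is active in hepatocytes and other cells that express albumin, and the study reports that it already deletes Cdk1 partly in embryonic hepatoblasts. Cells of a Cdk1 Liv-/- liver that never expressed albumin keep their Cdk1 alleles. The labels of the control mice give no floxed or Cre allele, and the study states that it used males. The comparisons ask how the genes of cell division respond when hepatocytes lose Cdk1, the kinase that drives entry into mitosis.

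Cdk1 itself (ENSMUSG00000019942, chr10:69335146-69352938 on the minus strand of GRCm38) was lower in both Cdk1 Liv-/- groups. In hepatocytes it was at 27.9, 20.4 and 28.2 FPKM in WT libraries 1, 2 and 3, and at 9.68, 11.8 and 6.87 FPKM in Cdk1 Liv-/- libraries 1, 2 and 3. Its whole liver levels were 25.3, 22.7 and 21.5 FPKM in WT and 11.7, 12.1 and 14.2 FPKM in Cdk1 Liv-/-. It fell by 1.40 in log2 in hepatocytes (adjusted p 0.0148 from limma) and by 0.85 in whole liver (adjusted p 0.00353 from limma). The genotypes did not overlap in either compartment, and a value for the whole gene does not show which exons were read. Cdk1 Liv-/- whole liver library 3 goes against the stated sex. It had 158 FPKM of Xist, the RNA of the inactive X chromosome, and 0 FPKM of 4 genes on the Y chromosome (Kdm5d, Uty, Eif2s3y and Ddx3y), while Xist was at most 0.14 FPKM in the other 11 libraries. WT hepatocyte library 3 stands apart in another way, since its markers of sinusoidal endothelial cells summed to 322 FPKM, against 167 and 115 FPKM in WT hepatocyte libraries 1 and 2. For the 10 genes, the counts of calls between genotypes are given with and without these 2 libraries, while ratios and correlations use all 12. The spacing of the lowest FPKM values puts the depth at 34.7 to 49.9 reads per library for each FPKM on 1 kb of transcript, with a median of 47.2 for WT and 39.5 for Cdk1 Liv-/- hepatocytes, and of 41.7 for WT and 47.7 for Cdk1 Liv-/- whole liver.

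After the chromosomes part, microtubules of opposite direction are bundled between them into the central spindle. The chromosomal passenger complex and the kinesin complex centralspindlin gather there and mark the cell's equator, where a ring of actin and myosin forms and contracts. The bridge that is left, the midbody, is then severed in abscission. Liver is known for leaving this process unfinished: around weaning, many hepatocytes divide their nucleus without dividing the cell and become binucleate.

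Genes of late mitosis are known to share a short promoter element, the cell cycle genes homology region, which is shown here because most of the 10 genes moved together. Promoter windows of 300 bases (250 before and 50 after the start site) were taken from a promoter set based on RefSeq for GRCm38.p6. Windows of Aurkb, Incenp and Kif20a were not searched, which left 7 of the 10 genes. The letters TTTGAA were searched on both strands and were found in 6 of these 7 genes, all but Cit, with at least 1 match of each gene within 50 bases of a start site. Of all 27025 genes in the set, 20.2% hold the letters anywhere in a window and 5.72% within 50 bases of a start site. Each sequence below is given 5′ to 3′ on the strand of its gene, with 1 match in capitals. Anln has a second match on the opposite strand, in lower case just before the capitals, and Ect2 has a second one farther out, at position -138 from 1 start site and -114 from the other.
Prc1, chr7:80294434-80294463, plus strand: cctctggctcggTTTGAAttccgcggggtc
Kif23, chr9:61946780-61946809, minus strand: ctgattggcctgTTTGAAatgcgccgggcg
Racgap1, chr15:99651634-99651663, minus strand: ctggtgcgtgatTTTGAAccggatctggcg
Ect2, chr3:27153822-27153851, minus strand: cgactggattttTTTGAAtcggaggcggca
Anln, chr9:22389161-22389190, minus strand: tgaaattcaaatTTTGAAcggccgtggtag
Cep55, chr19:38054996-38055025, plus strand, with the match on the opposite strand: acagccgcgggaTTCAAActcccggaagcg
In Kif23 the first base of the match lies at position 3 and in Racgap1 at position 6, counted from 1 at the start site. The CCAAT box, searched as CCAAT on both strands, was found in the windows of Ect2, Kif23, Prc1 and Racgap1 and in those of 41.1% of all genes. Both motifs stood in the windows of these same 4 genes and of 7.97% of all genes. Kif23, the gene with the smallest change in hepatocytes, holds both. A match is a run of letters and does not show that a factor binds there.

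The summed level of the 10 genes was 48.0, 34.6 and 51.8 FPKM in WT hepatocyte libraries 1, 2 and 3. In Cdk1 Liv-/- hepatocyte libraries 1, 2 and 3 it was 126, 171 and 84.1 FPKM. WT whole liver stood at 44.3, 43.3 and 40.1 FPKM, and Cdk1 Liv-/- whole liver at 75.7, 69.3 and 92.0 FPKM. The genotypes did not overlap in either compartment, and the lowest Cdk1 Liv-/- hepatocyte library lay above 2 of the 3 Cdk1 Liv-/- whole liver libraries. In bulk RNA, fewer cells of a type and less RNA per cell cannot be told apart, so a higher level may be spread over many cells or sit in a few.

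The chromosomal passenger complex holds the kinase Aurora B (Aurkb) and its scaffold Incenp. Aurkb (ENSMUSG00000020897, chr11:69045647-69051664, plus strand) was at 8.41, 7.01 and 10.2 FPKM in WT hepatocytes and at 13.9, 18.7 and 8.40 FPKM in Cdk1 Liv-/- hepatocytes. The whole liver libraries held 9.08, 8.44 and 7.38 FPKM in WT and 11.2, 10.1 and 13.0 FPKM in Cdk1 Liv-/-. The hepatocyte groups overlapped, because Cdk1 Liv-/- library 3 lay below WT libraries 1 and 3, while the whole liver groups did not. Its log2 fold change in hepatocytes was 0.59 (standard error 0.29) and did not pass the test (adjusted p 0.242 from limma). Without Cdk1 Liv-/- library 3 it was 0.89 and passed (adjusted p 0.0772), and without Cdk1 Liv-/- library 2 it was 0.34 (adjusted p 0.482). It also passed in 1 fit of all 12 libraries (adjusted p 0.0974), the range across the alternatives being 0.0772 to 0.482. In whole liver Aurkb rose by 0.44 in log2 (standard error 0.12, adjusted p 0.0359 from limma). It no longer passed there with median-ratio size factors (0.22, adjusted p 0.228 from limma).

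Incenp (ENSMUSG00000024660, chr19:9872296-9899551, minus strand) was at 4.06, 3.30 and 4.71 FPKM in WT hepatocytes and at 8.63, 11.6 and 6.10 FPKM in Cdk1 Liv-/- hepatocytes. Whole liver had 4.30, 4.92 and 4.06 FPKM in WT and 6.44, 6.26 and 7.71 FPKM in Cdk1 Liv-/-. All Cdk1 Liv-/- libraries lay above all WT libraries in both compartments. Incenp rose in hepatocytes by 1.01 in log2 (standard error 0.25, adjusted p 0.0539 from limma) and in whole liver by 0.57 (standard error 0.11, adjusted p 0.0137 from limma). Its hepatocyte call is a near one: without WT library 1 or 2 or Cdk1 Liv-/- library 1 or 2, its adjusted p was 0.139, 0.126, 0.131 and 0.107, and between 0.00502 and 0.149 across the alternatives. With a pseudocount of 1 its log2 fold change was 0.93 and with median-ratio size factors 0.94, both below the threshold of 1.

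The ratio of the kinase to its scaffold differed between the genotypes in hepatocytes, a comparison chosen after the values were seen and not tested. The ratio of Aurkb to Incenp FPKM was 2.12 ± 0.0482 (SD, n = 3) in WT hepatocytes and 1.53 ± 0.135 (SD, n = 3) in Cdk1 Liv-/- hepatocytes, with every Cdk1 Liv-/- library below every WT library. In whole liver the ratio was 1.88 ± 0.206 in WT and 1.68 ± 0.0588 in Cdk1 Liv-/- (SD, n = 3 each), and the groups overlapped. The other subunits of the complex on the list were Birc5 (survivin), Cdca8 (borealin) and the germ cell kinase Aurkc, of which Aurkc was below the filter. Cdca8 rose in hepatocytes from 4.83 ± 0.827 to 14.7 ± 3.84 FPKM (SD, n = 3 each; log2 fold change 1.49, adjusted p 0.0134 from limma). Birc5 rose from 21.7 ± 3.29 to 43.9 ± 13.1 FPKM (SD, n = 3 each; log2 fold change 0.96, adjusted p 0.0621 from limma), a pass that holds when Cdk1 Liv-/- library 3 is left out and not when any other single hepatocyte library is, the highest adjusted p being 0.155. In whole liver Cdca8 rose (log2 fold change 0.75, adjusted p 0.0254 from limma) and Birc5 did not pass (0.28, adjusted p 0.198 from limma).

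Prc1 crosslinks the antiparallel microtubules of the central spindle and had the highest mean of the 10 genes in all 4 groups, with Aurkb close to it in WT. Prc1 (ENSMUSG00000038943, chr7:80294450-80316259, plus strand) was at 9.15, 6.74 and 10.8 FPKM in WT hepatocytes and at 36.1, 47.5 and 22.8 FPKM in Cdk1 Liv-/- hepatocytes. Levels in whole liver were 8.78, 8.27 and 7.89 FPKM in WT and 19.0, 16.9 and 23.6 FPKM in Cdk1 Liv-/-. The lowest Cdk1 Liv-/- hepatocyte library was above the highest WT one by more than the whole range of the WT libraries, and whole liver showed no overlap either. The mean went from 8.89 ± 2.03 to 35.5 ± 12.4 FPKM in hepatocytes and from 8.31 ± 0.447 to 19.9 ± 3.44 FPKM in whole liver (SD, n = 3 each). The log2 fold change was 1.90 in hepatocytes (standard error 0.29, adjusted p 0.0140 from limma) and 1.20 in whole liver (standard error 0.13, adjusted p 0.00288 from limma). Its exons overlap those of Rccd1 on the opposite strand, a gene with a mean of 2.56 FPKM and a log2 fold change of 0.42 in hepatocytes (adjusted p 0.213 from limma) and of 0.52 in whole liver (adjusted p 0.0250 from limma). All Cdk1 Liv-/- libraries lay above all WT libraries for Rccd1 in both compartments. Whether strand was used in counting is not stated.

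Kif20a is the kinesin that carries the chromosomal passenger complex to the central spindle. Kif20a (ENSMUSG00000003779, chr18:34624613-34633277, plus strand) was at 7.18, 4.41 and 6.19 FPKM in WT hepatocytes and at 22.6, 29.0 and 13.7 FPKM in Cdk1 Liv-/- hepatocytes. Its whole liver levels were 5.80, 5.07 and 5.28 FPKM in WT and 11.4, 9.70 and 13.4 FPKM in Cdk1 Liv-/-. The genotypes were apart in both compartments, most widely in hepatocyte library 2 of Cdk1 Liv-/-. The log2 fold change was 1.75 in hepatocytes (standard error 0.30, adjusted p 0.0190 from limma) and 1.02 in whole liver (standard error 0.12, adjusted p 0.00406 from limma). Its exons overlap those of Cdc23 on the opposite strand, whose level was 9.36 FPKM on average and whose log2 fold change was 0.04 in hepatocytes (adjusted p 0.903 from limma) and 0.17 in whole liver (adjusted p 0.0693 from limma), where its genotypes did not overlap.

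Centralspindlin pairs the kinesin Kif23 with the GTPase-activating protein Racgap1. Kif23 (ENSMUSG00000032254, chr9:61915905-61946774, minus strand) was at 1.77, 0.94 and 2.61 FPKM in WT hepatocytes and at 1.16, 3.18 and 1.14 FPKM in Cdk1 Liv-/- hepatocytes. The whole liver libraries held 2.03, 2.25 and 1.68 FPKM in WT and 2.45, 2.60 and 2.87 FPKM in Cdk1 Liv-/-. In hepatocytes 2 of the 3 Cdk1 Liv-/- libraries lay inside the WT range and 1 above it, whereas in whole liver all 3 lay above. The hepatocyte log2 fold change of Kif23 was -0.0070 (standard error 0.42, adjusted p 0.997 from limma), the smallest of the 10 genes. Its sign turned with the libraries used: it was 0.25 without WT library 3, 0.18 without Cdk1 Liv-/- library 1, 0.19 without Cdk1 Liv-/- library 3 and 0.03 without WT library 1, with adjusted p from 0.536 to 1 over all alternatives, and -0.39 at the lowest. In whole liver Kif23 rose by 0.34 (standard error 0.11, adjusted p 0.0634 from limma), and it no longer passed without WT library 1 (adjusted p 0.139), WT library 3 (0.136), Cdk1 Liv-/- library 2 (0.117) or Cdk1 Liv-/- library 3, the library with Xist (0.161, and between 0.0371 and 0.471 across the alternatives). These levels rest on about 120 to 458 reads per library.

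Racgap1 (ENSMUSG00000023015, chr15:99620496-99651656, minus strand) was at 7.71, 4.86 and 7.48 FPKM in WT hepatocytes and at 17.3, 22.3 and 11.0 FPKM in Cdk1 Liv-/- hepatocytes. Whole liver had 6.82, 6.55 and 5.89 FPKM in WT and 9.98, 9.29 and 11.9 FPKM in Cdk1 Liv-/-. All Cdk1 Liv-/- libraries were above all WT libraries in each compartment. Racgap1 rose by 1.24 in log2 in hepatocytes (standard error 0.29, adjusted p 0.0474 from limma) and by 0.65 in whole liver (standard error 0.11, adjusted p 0.00935 from limma). Without WT library 1 or 2 or Cdk1 Liv-/- library 1 or 2 its hepatocyte adjusted p was 0.106, 0.106, 0.125 and 0.108, and between 0.00369 and 0.131 across the alternatives.

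The ratio of Kif23 to Racgap1 FPKM, also chosen after the values were seen and not tested, was 0.257 ± 0.0814 in WT hepatocytes and 0.104 ± 0.0377 in Cdk1 Liv-/- hepatocytes (SD, n = 3 each). Library by library it was 0.230, 0.193 and 0.349 in WT and 0.0670, 0.142 and 0.104 in Cdk1 Liv-/- hepatocytes, with no overlap. In whole liver it was 0.309 ± 0.0307 in WT and 0.255 ± 0.0215 in Cdk1 Liv-/- (SD, n = 3 each), again without overlap, since the highest Cdk1 Liv-/- library stood at 0.280 and the lowest WT library at 0.285. The plot of partner ratios shows both pairs of subunits in every library.

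**Figure D1:**
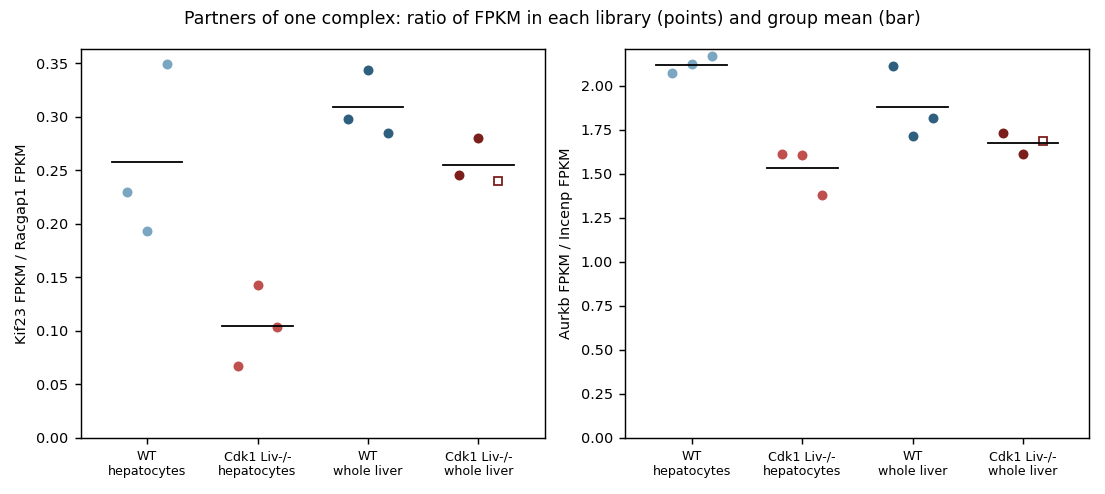
Ratio of Kif23 to Racgap1 FPKM (left) and of Aurkb to Incenp FPKM (right) in each of the 12 libraries by group, with group means as bars, linear axes from 0, and the Cdk1 Liv-/- whole liver library with Xist as an open square. In hepatocytes both ratios are lower in every Cdk1 Liv-/- library than in every WT library.

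Among 6 further genes of the central spindle on the list, 5 rose in hepatocytes and 5 in whole liver (beside 12.1% and 38.0% of all tested genes), with median log2 fold changes of 1.30 and 0.68. The kinesin Kif20b rose in hepatocytes from 1.40 ± 0.475 to 4.76 ± 1.20 FPKM (SD, n = 3 each; log2 fold change 1.48, adjusted p 0.0174 from limma). The chromokinesin Kif4, which sets the length of the Prc1 bundles, rose from 2.23 ± 0.0436 to 7.13 ± 2.40 FPKM (SD, n = 3 each; log2 fold change 1.44, adjusted p 0.0149 from limma). Shcbp1, a partner of centralspindlin, rose by 0.96 (adjusted p 0.0830 from limma), and the kinesin Kif14 did not pass (0.51, adjusted p 0.365 from limma). With 1 library left out, between 2 and 5 of the 6 passed in hepatocytes, the count of 2 coming without WT library 1, WT library 2 or Cdk1 Liv-/- library 1, and 4 without WT library 3. Shcbp1 passed without Cdk1 Liv-/- library 3 and with no other single library left out (highest adjusted p 0.186).

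Ect2 is the exchange factor that starts the ring at the equator. Ect2 (ENSMUSG00000027699, chr3:27097222-27153878, minus strand) was at 4.93, 3.93 and 4.49 FPKM in WT hepatocytes and at 14.3, 20.1 and 11.1 FPKM in Cdk1 Liv-/- hepatocytes. Levels in whole liver were 3.22, 3.71 and 3.90 FPKM in WT and 7.31, 7.04 and 9.72 FPKM in Cdk1 Liv-/-. The genotypes were well apart in both compartments, and each Cdk1 Liv-/- hepatocyte library also lay above each Cdk1 Liv-/- whole liver library. The log2 fold change was 1.63 in hepatocytes (standard error 0.22, adjusted p 0.00927 from limma) and 1.04 in whole liver (standard error 0.14, adjusted p 0.00520 from limma).

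Anillin (Anln) is the scaffold that ties actin, myosin and septins together in the ring. Anln (ENSMUSG00000036777, chr9:22332012-22389188, minus strand) was at 2.50, 1.62 and 2.48 FPKM in WT hepatocytes and at 5.43, 8.79 and 4.10 FPKM in Cdk1 Liv-/- hepatocytes. Its whole liver levels were 1.87, 1.71 and 1.55 FPKM in WT and 3.23, 2.74 and 3.70 FPKM in Cdk1 Liv-/-. There was no overlap in either compartment. Anln rose by 1.25 in log2 in hepatocytes (standard error 0.29, adjusted p 0.0479 from limma) and by 0.75 in whole liver (standard error 0.12, adjusted p 0.00843 from limma). The hepatocyte adjusted p was 0.113 without WT library 1, 0.112 without WT library 2 and 0.109 without Cdk1 Liv-/- library 1, and without Cdk1 Liv-/- library 2 the log2 fold change was 0.97, below the threshold of 1 (adjusted p from 0.00370 to 0.141 over all alternatives).

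Citron kinase (Cit) links the ring to the midbody and was the least abundant of the 10 genes in 3 of the 4 groups, the exception being Cdk1 Liv-/- hepatocytes. Cit (ENSMUSG00000029516, chr5:115845278-116008947, plus strand) was at 0.66, 0.27 and 0.66 FPKM in WT hepatocytes and at 3.04, 5.26 and 3.32 FPKM in Cdk1 Liv-/- hepatocytes. The whole liver libraries held 0.46, 0.38 and 0.53 FPKM in WT and 1.36, 1.64 and 2.15 FPKM in Cdk1 Liv-/-. The groups did not overlap, and the Cdk1 Liv-/- mean was 7.31 times the WT mean in hepatocytes and 3.76 times in whole liver. The log2 fold change of Cit, 2.08 in hepatocytes (standard error 0.27, adjusted p 0.00756 from limma), was the largest of the 10 genes. In whole liver it was 1.20 (standard error 0.15, adjusted p 0.00427 from limma). At these low levels the added 0.5 FPKM shrinks the fitted change: with 0.1 FPKM added, it was 2.69 in hepatocytes and 1.69 in whole liver. With 1 FPKM added it was 1.65 in hepatocytes and 0.89 in whole liver, the latter below the threshold of 1. WT hepatocyte library 2, the lowest, holds about 64 reads of Cit.

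Actin, myosin and their regulators, 12 genes, showed 4 that rose in hepatocytes and 10 that rose in whole liver (beside 12.1% and 38.0% of all tested genes). Their median log2 fold changes were 0.16 and 0.58, where those of all tested genes were 0.05 and 0.18. The hepatocyte median ran from 0.06 to 0.22 with 1 library left out. With median-ratio size factors it was 0.09, beside -0.0010 for all tested genes. The non-muscle myosin heavy chain Myh10 was at 3.13, 3.85 and 5.48 FPKM in WT hepatocytes and at 13.7, 10.9 and 10.3 FPKM in Cdk1 Liv-/- hepatocytes. It rose by 1.40 there (adjusted p 0.0132 from limma) and by 1.16 in whole liver (adjusted p 0.000235 from limma). The light chain Myl12b rose by 0.82 in hepatocytes (adjusted p 0.0148 from limma) and by 1.05 in whole liver (adjusted p 0.000739 from limma). The cytoplasmic actin Actg1 had a log2 fold change of -0.44 in hepatocytes (adjusted p 0.237 from limma) and rose by 0.60 in whole liver (adjusted p 0.0376 from limma), a rise that did not pass without WT whole liver library 1 or 2 (highest adjusted p 0.118). Myl9, a light chain of smooth muscle, had -1.39 in hepatocytes (adjusted p 0.127 from limma) and -0.07 in whole liver (adjusted p 0.741 from limma). With 1 library left out, 2 to 4 of the 12 rose in hepatocytes, the count of 2 coming without WT library 1 or 2 or Cdk1 Liv-/- library 2 or 3, and 8 to 10 rose in whole liver (8 without WT library 2).

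Septins form filaments under the ring, and all 9 on the list were found through their reference names, since the table holds them as dates. In hepatocytes 1 septin rose and in whole liver 8 did (beside 12.1% and 38.0% of all tested genes). The median log2 fold changes were 0.04 and 0.45, where those of all tested genes were 0.05 and 0.18. Sept10 rose in hepatocytes from 5.89 ± 0.445 to 7.97 ± 0.513 FPKM (SD, n = 3 each; log2 fold change 0.41, adjusted p 0.0661 from limma), which no longer passed with any single hepatocyte library left out (highest adjusted p 0.156). Sept5 had a log2 fold change of 0.42 in hepatocytes (adjusted p 0.206 from limma) and rose by 0.88 in whole liver (adjusted p 0.00432 from limma). Sept8 had -0.37 in hepatocytes (adjusted p 0.559 from limma), and Sept4 had -1.35 (adjusted p 0.134 from limma), while both rose in whole liver, by 0.47 (adjusted p 0.0688 from limma) and 0.38 (adjusted p 0.0174 from limma). The rise of Sept8 did not pass without WT whole liver library 1 or 2 (highest adjusted p 0.189). The median of the septins in hepatocytes changes sign with the scaling of libraries, to -0.03 with median-ratio size factors, and with single libraries left out. It was -0.02 without WT library 1, -0.06 without WT library 2, and -0.07 and -0.06 without Cdk1 Liv-/- libraries 1 and 2. Without WT library 3 it was 0.19, and without Cdk1 Liv-/- library 3 it was 0.18.

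Cep55 is the midbody protein that recruits the ESCRT machinery for abscission. Cep55 (ENSMUSG00000024989, chr19:38055011-38074423, plus strand) was at 1.62, 1.53 and 2.19 FPKM in WT hepatocytes and at 3.78, 4.96 and 2.47 FPKM in Cdk1 Liv-/- hepatocytes. Whole liver had 1.98, 1.96 and 1.91 FPKM in WT and 3.42, 2.98 and 3.90 FPKM in Cdk1 Liv-/-. The groups did not overlap, although Cdk1 Liv-/- hepatocyte library 3 lay close to WT library 3. Cep55 rose by 0.86 in log2 in hepatocytes (standard error 0.26, adjusted p 0.0875 from limma) and by 0.68 in whole liver (standard error 0.10, adjusted p 0.00723 from limma). Its pass in hepatocytes was lost without WT library 1, 2 or 3 (adjusted p 0.207, 0.191 and 0.114) and without Cdk1 Liv-/- library 1 or 2 (0.184 and 0.185), while without Cdk1 Liv-/- library 3 the log2 fold change was 1.10 (adjusted p 0.0529, and between 0.0114 and 0.207 across the alternatives).

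The abscission list, which includes Cep55, had 18 of 19 genes in the table (Chmp1b was not found). In hepatocytes 3 of these rose, Cep55 among them, and in whole liver 12 did (beside 12.1% and 38.0% of all tested genes). The median log2 fold changes were 0.16 and 0.33, where those of all tested genes were 0.05 and 0.18. With median-ratio size factors the hepatocyte median was 0.08, beside -0.0010 for all tested genes. The ESCRT-III subunit Chmp2b rose from 17.0 ± 0.332 to 24.2 ± 2.12 FPKM in hepatocytes (SD, n = 3 each; log2 fold change 0.49, adjusted p 0.0207 from limma) and by 0.76 in whole liver (adjusted p 0.000653 from limma). Its sister subunit Chmp2a had a log2 fold change of -0.14 in hepatocytes (adjusted p 0.243 from limma), and Mitd1, which acts with ESCRT-III at the midbody, had -0.10 (adjusted p 0.656 from limma). With 1 library left out, 1 to 3 of the 18 rose in hepatocytes, the count of 1 coming without WT library 1 or WT library 2, and 2 without WT library 3 or Cdk1 Liv-/- library 2 or 3.

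**Figure D2:**
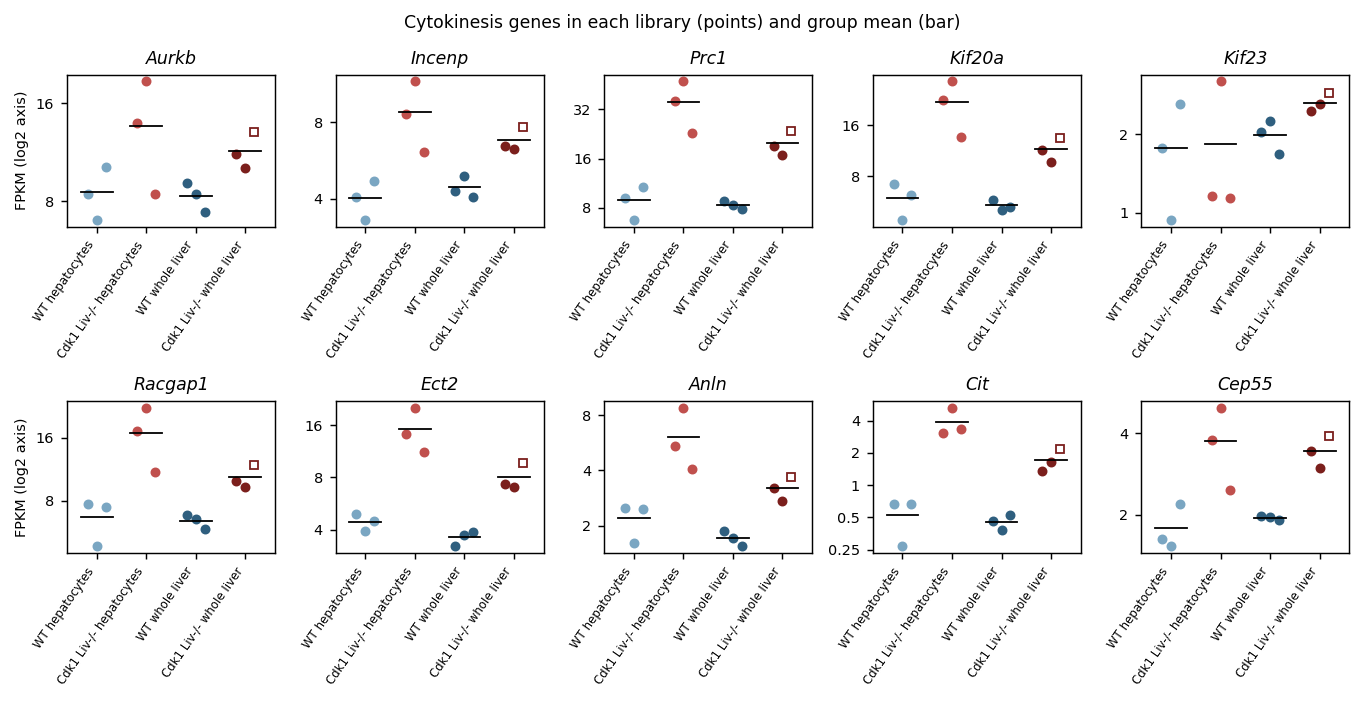
FPKM of the 10 cytokinesis genes in each library (points, on a log2 axis) with the mean of each group (bar), and the Cdk1 Liv-/- whole liver library with Xist as an open square. In hepatocytes Kif23 and Aurkb overlap between the genotypes and the other 8 genes do not, while in whole liver none of the 10 overlaps.

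In isolated hepatocytes, 7 of the 10 genes were called higher in the Cdk1 Liv-/- group, which takes a log2 fold change of 1 or more at an adjusted p up to 0.1, a call that 4.20% of all 17386 tested genes received. These were Cit, Prc1, Kif20a, Ect2, Anln, Racgap1 and Incenp. At the adjusted p alone 8 passed as higher, Cep55 being added (12.1% of all tested genes), and in 8 all 3 Cdk1 Liv-/- libraries lay above all 3 WT libraries (20.6% of all tested genes). The median log2 fold change of the 10 genes was 1.25, beside 0.05 for all tested genes. Cit, Prc1, Kif20a and Ect2 were called under each of the 16 alternatives tried, leaving out any 1 library included. Without WT library 1 or 2, or Cdk1 Liv-/- library 1 or 2, they were the only 4 called, without Cdk1 Liv-/- library 3 there were 8, and without WT library 3 there were 7. Of all tested genes, 6.65% to 9.33% passed the adjusted p as higher with 1 of these libraries left out, fewer than the 12.1% with all of them.

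In whole liver, 4 of the 10 genes were called higher, namely Prc1, Cit, Ect2 and Kif20a, against 4.59% of all tested genes. All 10 passed the adjusted p as higher, where 38.0% of all tested genes did, and in all 10 the Cdk1 Liv-/- libraries lay above the WT libraries, as in 43.2% of all tested genes. The median log2 fold change of the 10 was 0.71, beside 0.18 for all tested genes. Without Cdk1 Liv-/- library 3, the one with Xist, 2 genes were called (Prc1 at 1.07 and Cit at 1.06) and 9 passed the adjusted p (31.5% of all tested genes did as higher), while Ect2 stood at 0.90 and Kif20a at 0.91. Ect2 also fell below the fold threshold without WT library 1 (0.97), and Kif20a without WT library 2 (0.98). Median-ratio size factors moved the median of all tested genes by -0.169 in whole liver, to 0.01, and the median of the 10 genes to 0.52. Relative to the median of all genes, the 10 genes then stood at 0.51, where they stood at 0.53 without that scaling. Under it 8 of the 10 passed the adjusted p as higher, where 17.9% of all tested genes did, Kif23 and Aurkb not passing (0.16 and 0.22, adjusted p 0.308 and 0.228, with ranges of 0.0371 to 0.471 and 0.0238 to 0.228 over all alternatives). With the same scaling 1 of the 10 genes was called, Cit at 1.03. Prc1 (0.98), Ect2 (0.84) and Kif20a (0.81) then lay below the fold threshold.

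The plot of changes puts the compartments side by side. Apart from Kif23, each of the 10 genes had the larger fitted change in hepatocytes.

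**Figure D3:**
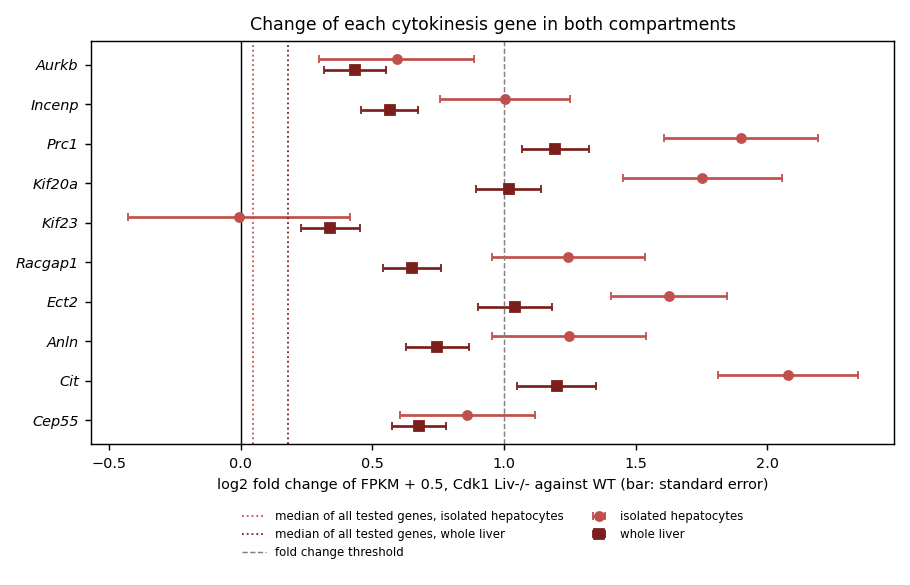
Fitted log2 fold change of FPKM + 0.5, Cdk1 Liv-/- against WT, for the 10 genes in isolated hepatocytes (circles) and whole liver (squares), with standard errors as bars; dotted lines mark the medians of all tested genes and the dashed line a log2 fold change of 1. Kif23 is near 0 in hepatocytes (-0.0070) and at 0.34 in whole liver, and Cit, at 2.08 in hepatocytes, is the farthest to the right.

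The difference between compartments was tested in limma by an interaction term. None of the 10 genes passed (0 at an adjusted p of at most 0.1, where 9.85% of all tested genes did), and 1, Cit, had an unadjusted p below 0.05. The difference in log2 fold change was 0.88 for Cit (adjusted p 0.129 from limma), 0.74 for Kif20a (adjusted p 0.229 from limma), 0.70 for Prc1 (adjusted p 0.240 from limma) and -0.35 for Kif23 (adjusted p 0.699 from limma). The median was 0.54 for the 10 genes and -0.11 for all tested genes, and relative to all genes it was 0.65, or 0.67 with median-ratio size factors, which move the median of all genes by 0.116 here. Cdk1 Liv-/- hepatocyte library 3 was the lowest of its group in 9 of the 10 genes, an order not counted over all genes. Without this library 2 passed: Kif20a at 1.03 (adjusted p 0.0876, up to 0.398 over all alternatives) and Prc1 at 0.99 (adjusted p 0.0943, up to 0.412).

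Between the compartments of WT mice, none of the 10 genes passed (0 of 10 by limma and 0 at an unadjusted p below 0.05, beside 2.93% of all tested genes past the adjusted p). Whole liver includes hepatocytes, so this does not place the RNAs in a cell type. No hepatocyte, Kupffer, endothelial, stellate or neutrophil marker passed either (endothelial median 0.04). Lower in hepatocytes were 3 of 6 cholangiocyte, 4 of 11 erythroid, 5 of 8 B cell and 4 of 8 T and NK cell markers. The median log2 difference of the 10 genes, hepatocytes minus whole liver, was 0.05, beside -0.10 for all tested genes. Single values ran from -0.19 for Kif23 to 0.27 for Ect2 and Anln. With median-ratio size factors these medians were 0.15 and -0.000182. Signs turned with single libraries. Without WT hepatocyte library 3, Racgap1 (-0.06), Prc1 (-0.08), Cit (-0.01) and Aurkb (-0.10) were negative. Kif23 then stood at -0.45, and Anln, Ect2 and Kif20a stayed positive. Without WT hepatocyte library 1, Racgap1 (-0.08), Cit (-0.01) and Kif20a (-0.04) were negative, and without WT hepatocyte library 2 Kif23 was positive (0.10). Between the compartments of Cdk1 Liv-/- mice, 6 of the 10 genes were higher in hepatocytes, where 11.1% of all tested genes were higher and 51.1% differed in either direction. These 6 were Cit (0.96, adjusted p 0.00593), Ect2 (0.85, adjusted p 0.00540), Kif20a (0.84, adjusted p 0.0186), Anln (0.77, adjusted p 0.0219), Prc1 (0.77, adjusted p 0.0249) and Racgap1 (0.62, adjusted p 0.0520), all from limma. Cep55 (0.07, adjusted p 0.807 from limma), Aurkb (0.19, adjusted p 0.556 from limma), Incenp (0.31, adjusted p 0.238 from limma) and Kif23 (-0.54, adjusted p 0.205 from limma) did not pass. The median was 0.70, beside -0.19 for all tested genes, and with median-ratio size factors, which move the latter by 0.206, the distance between them went from 0.89 to 0.93. Racgap1 was lost without Cdk1 Liv-/- hepatocyte library 1 (adjusted p 0.119) or 2 (0.183) and without Cdk1 Liv-/- whole liver library 1 (0.113) or 2 (0.143), Kif23 passed as lower without Cdk1 Liv-/- hepatocyte library 2 (0.0209), and Incenp (0.0356) and Aurkb (0.0579) passed without Cdk1 Liv-/- hepatocyte library 3. With median-ratio size factors 7 of the 10 passed as higher, Incenp being added (0.56, adjusted p 0.0360 from limma, up to 0.707 over all alternatives). These comparisons share libraries with those of the genotypes and are not independent of them.

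The order of the 4 groups was the same for 7 of the 10 genes: Cdk1 Liv-/- hepatocytes highest, then Cdk1 Liv-/- whole liver, WT hepatocytes and WT whole liver. The order of the WT groups rests on means alone, since none of the 10 genes passed the test between them. Without WT hepatocyte library 3, the WT hepatocyte means of Racgap1, Prc1 and Aurkb fall below their WT whole liver means, so fewer genes share this order. For Aurkb the order of the Cdk1 Liv-/- groups also rests on means (0.19, adjusted p 0.556 from limma). Cdk1 Liv-/- whole liver was not tested against WT hepatocytes. Cep55 and Incenp had the WT groups in the opposite order. Kif23 alone had both whole liver groups above both hepatocyte groups, with means of 2.64 ± 0.213 FPKM in Cdk1 Liv-/- whole liver, 1.99 ± 0.287 in WT whole liver, 1.83 ± 1.17 in Cdk1 Liv-/- hepatocytes and 1.77 ± 0.835 in WT hepatocytes (SD, n = 3 each).

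Libraries of a group differed from each other for the 10 genes as a set. WT hepatocyte library 2 was the lowest of its group and Cdk1 Liv-/- hepatocyte library 2 the highest of its group in 10 of 10 genes. Cdk1 Liv-/- whole liver library 3 was the highest of its group in 10 of 10 genes. How many of all tested genes share these orders was not counted. Median-ratio size factors of hepatocyte libraries 1, 2 and 3 were 0.931, 0.865 and 0.931 in WT and 0.939, 0.981 and 0.954 in Cdk1 Liv-/-. Library 2 was thus the lowest and the highest there as well. In Cdk1 Liv-/- whole liver they were 1.14, 1.18 and 1.15, with library 3 in the middle. The order of levels also shifted: Aurkb was the 2nd most abundant gene in both WT groups, at 8.54 ± 1.60 FPKM in hepatocytes and 8.30 ± 0.859 FPKM in whole liver (SD, n = 3 each), and Kif20a took that place in both Cdk1 Liv-/- groups, at 21.8 ± 7.69 and 11.5 ± 1.84 FPKM (SD, n = 3 each).

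The genes whose pattern over the 12 libraries was most like the mean of the 10 were Tpx2 (Pearson r 0.990), Dbf4 (0.990), Kif2c (0.989), Aurka (0.988), Nusap1 (0.987), Kifc1 (0.986), Trim59 (0.982) and Hyls1 (0.982), among 12282 genes with a mean of at least 1 FPKM. The 12 libraries fall into 4 groups, so these values describe the difference between groups as much as that between libraries. Of the 10 genes themselves, Prc1 was the most like their mean (0.992), and Cep55 (0.949), Aurkb (0.920) and Kif23 (0.345) the least. Each of the 10 is part of that mean, so these values cannot be set beside those of the genes outside it.

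Of 10 mitotic genes outside cytokinesis kept for reference, 7 rose in hepatocytes and 9 in whole liver (beside 12.1% and 38.0% of all tested genes), with medians of 1.06 and 0.57. Cyclin B1 (Ccnb1), the partner of Cdk1, rose from 10.9 ± 2.65 to 47.5 ± 16.3 FPKM in hepatocytes (SD, n = 3 each; log2 fold change 2.04, adjusted p 0.0121 from limma), and Ccnb2 rose by 1.75 (adjusted p 0.0113 from limma). Cyclin A2 (Ccna2) had 0.71 (adjusted p 0.179 from limma) and the proliferation marker Mki67 had 0.69 (adjusted p 0.202 from limma). With 1 library left out, 4 to 9 of the 10 rose in hepatocytes, 4 of them without WT library 1 and 9 without Cdk1 Liv-/- library 3, and 7 to 10 rose in whole liver. Among 14 genes of the factors that control G2/M transcription, 5 rose in hepatocytes, and in whole liver 5 rose and 1 fell, with 12.1% and 38.0% of all tested genes rising. The medians were 0.46 and 0.20, where those of all tested genes were 0.05 and 0.18. E2f1 rose by 0.88 in hepatocytes (adjusted p 0.0606 from limma), passing among the leave-outs when Cdk1 Liv-/- library 3 was dropped (highest adjusted p of the others 0.167). Foxm1, an activator of late mitotic genes, had 0.93 there without passing (adjusted p 0.145 from limma), and Mybl2 and E2f7 had -0.20 (adjusted p 0.558 from limma) and -0.19 (adjusted p 0.635 from limma). With 1 hepatocyte library left out, 1 to 5 of the 14 passed, 1 of them without WT library 3 or Cdk1 Liv-/- library 2 and 2 without WT library 1 or 2. With 1 whole liver library left out, 3 or 4 rose.

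Relative to the scaling given above, the whole liver medians of the lists with median-ratio size factors were 0.30 for the partners of the chromosomal passenger complex, 0.49 for the central spindle, 0.36 for actomyosin, 0.24 for septins, 0.12 for abscission, 0.03 for G2/M transcription and 0.36 for the mitotic reference. The counts of genes that rose in whole liver were then 1 of 2, 4 of 6, 7 of 12, 4 of 9, 7 of 18, 2 of 14 and 6 of 10, where 17.9% of all tested genes rose. Without the whole liver library with Xist and with no such scaling, they were 1, 5, 9, 8, 11, 3 and 8, in the same order, where 31.5% of all tested genes rose. The plot of related lists gives each gene.

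**Figure D4:**
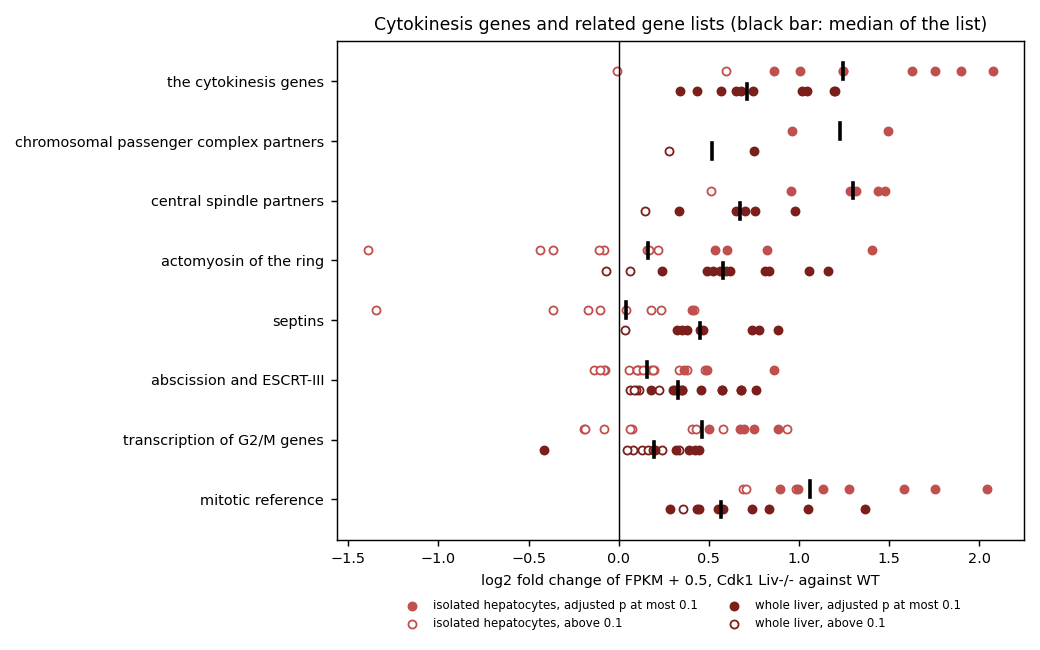
Fitted log2 fold change, Cdk1 Liv-/- against WT, of each gene in the cytokinesis set and in 7 related lists, in hepatocytes (light) and whole liver (dark), filled where the adjusted p is at most 0.1, with the median of each list as a black bar. In hepatocytes the medians of the cytokinesis genes (1.25), the central spindle partners (1.30) and the mitotic reference (1.06) are above 1, while those of actomyosin, septins and abscission lie between 0.04 and 0.16.

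Cell type markers moved with genotype as well. Their counts stand beside 12.1% of all tested genes that rose and 6.61% that fell in hepatocytes, and 38.0% and 7.53% in whole liver. With median-ratio size factors the whole liver shares were 17.9% and 16.4%, and the hepatocyte shares were 9.83% and 8.13%. The 10 hepatocyte markers, Alb the most abundant, summed to 99520, 112414 and 107569 FPKM in WT hepatocytes and to 70219, 79266 and 70801 FPKM in Cdk1 Liv-/- hepatocytes, with 2 that rose and 2 that fell, or 0 to 1 and 1 to 2 with 1 library left out. Their whole liver sums were 104538, 101756 and 104653 FPKM in WT and 88720, 83324 and 90782 FPKM in Cdk1 Liv-/-, with 0 that rose and 4 that fell by limma, or 0 to 1 and 3 to 6 with 1 library left out. The sums were lower in every Cdk1 Liv-/- library than in every WT library of the same compartment. Hepatocyte markers were thus present at high level in all 12 libraries.

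The 10 sinusoidal endothelial markers, Stab1 the most abundant, summed to 167, 115 and 322 FPKM in WT hepatocytes and to 81.1, 50.4 and 60.7 FPKM in Cdk1 Liv-/- hepatocytes, where 9 fell (median log2 fold change -1.73). Without WT hepatocyte library 3 the count was 8, and it was 3 without WT library 1 or Cdk1 Liv-/- library 2 or 3, 6 without Cdk1 Liv-/- library 1 and 10 without WT library 2. Whole liver sums were 159, 185 and 221 FPKM in WT and 200, 247 and 205 FPKM in Cdk1 Liv-/-, and 2 rose, or 0 without WT library 1 or the library with Xist and 1 without WT library 2 or Cdk1 Liv-/- library 1 or 2 (1 also fell without the last). With median-ratio size factors none rose and 1 fell there, and the median log2 fold change went from 0.06 to -0.15. The 10 Kupffer cell and macrophage markers, Cd5l the most abundant, summed to 325, 175 and 598 FPKM in WT hepatocytes and to 203, 152 and 131 FPKM in Cdk1 Liv-/- hepatocytes, where 1 fell, or 9 without WT library 2 and 0 with any other hepatocyte library left out. With median-ratio size factors 4 of these markers fell in hepatocytes. In whole liver they summed to 460, 515 and 520 FPKM in WT and 604, 832 and 636 FPKM in Cdk1 Liv-/-, and 4 rose, or 2 without WT library 1 or 2, 3 without WT library 3 and 2 with median-ratio size factors. The 10 stellate cell markers, Dcn the most abundant, summed to 215, 132 and 436 FPKM in WT hepatocytes and to 126, 103 and 91.8 FPKM in Cdk1 Liv-/- hepatocytes, where 2 fell, or 6 without WT library 2 and 0 with any other hepatocyte library left out. Their whole liver sums were 391, 392 and 421 FPKM in WT and 546, 514 and 577 FPKM in Cdk1 Liv-/-, and 5 rose and 1 fell. Without WT library 3 these counts were 6 and 0, and without Cdk1 Liv-/- library 2 they were 7 and 1.

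Cholangiocyte markers went the other way in hepatocytes. The 7 genes, Spp1 the most abundant, summed to 19.8, 15.0 and 30.4 FPKM in WT hepatocytes and to 69.1, 130 and 103 FPKM in Cdk1 Liv-/- hepatocytes, and 5 of the 6 tested rose, or 4 with any single hepatocyte library left out. Most of each sum is Spp1 alone, at 18.3, 13.5 and 28.7 FPKM in WT and 63.0, 120 and 95.6 FPKM in Cdk1 Liv-/- hepatocytes. Whole liver sums were 60.4, 63.6 and 46.8 FPKM in WT and 280, 145 and 273 FPKM in Cdk1 Liv-/-, and 5 rose, or 3 without the library with Xist and 3 to 6 with any 1 whole liver library left out. With median-ratio size factors 3 of these markers rose there. The 9 neutrophil and monocyte markers, S100a9 the most abundant, summed to 14.3, 12.1 and 48.4 FPKM in WT and to 21.1, 11.0 and 19.9 FPKM in Cdk1 Liv-/- hepatocytes, where 1 rose. In whole liver they summed to 70.4, 43.9 and 66.9 FPKM in WT and 90.0, 302 and 244 FPKM in Cdk1 Liv-/-, and 6 rose, or 3 without the library with Xist and 2 to 9 with any 1 whole liver library left out.

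Erythroid markers, 11 of 12 found and Hbb-bs the most abundant, summed to 211, 176 and 648 FPKM in WT and to 110, 152 and 60.0 FPKM in Cdk1 Liv-/- hepatocytes. Their whole liver sums were 1162, 1278 and 2230 FPKM in WT and 1191, 1824 and 1497 FPKM in Cdk1 Liv-/-, with 3 that fell in each compartment. In hepatocytes 1 fell without WT library 1 or 3 or Cdk1 Liv-/- library 1 or 3, 2 without WT library 2, and 5 with median-ratio size factors. In whole liver 2 fell without Cdk1 Liv-/- library 1 or the library with Xist and 4 without Cdk1 Liv-/- library 2, while 2 rose without WT library 3 and 1 without Cdk1 Liv-/- library 1. The 8 B cell markers, Ighm the most abundant, summed to 8.55, 6.98 and 20.2 FPKM in WT and to 5.29, 2.90 and 2.98 FPKM in Cdk1 Liv-/- hepatocytes, and 3 fell in each compartment. In hepatocytes the count was 0 without WT library 1 or any 1 Cdk1 Liv-/- library and 4 without WT library 2. In whole liver it was 0 without WT library 1 or 3 or Cdk1 Liv-/- library 1, and 2 without WT library 2 or the library with Xist. Whole liver sums were 34.2, 29.6 and 37.7 FPKM in WT and 16.8, 32.7 and 27.9 FPKM in Cdk1 Liv-/-. The 8 T and NK cell markers, Gzma the most abundant, summed to 4.40, 3.04 and 5.95 FPKM in WT and to 1.52, 1.03 and 1.26 FPKM in Cdk1 Liv-/- hepatocytes, where 4 fell, or 3 with any 1 library but WT library 2 left out. In whole liver they summed to 11.2, 17.4 and 9.23 FPKM in WT and 7.13, 10.2 and 7.72 FPKM in Cdk1 Liv-/-, where 1 fell, or 0 without WT library 2 or the library with Xist and 2 without WT library 3 or Cdk1 Liv-/- library 1.

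The part of these cell types in the levels of the 10 cytokinesis genes was not tested. The plot of summed levels sets them side by side.

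**Figure D5:**
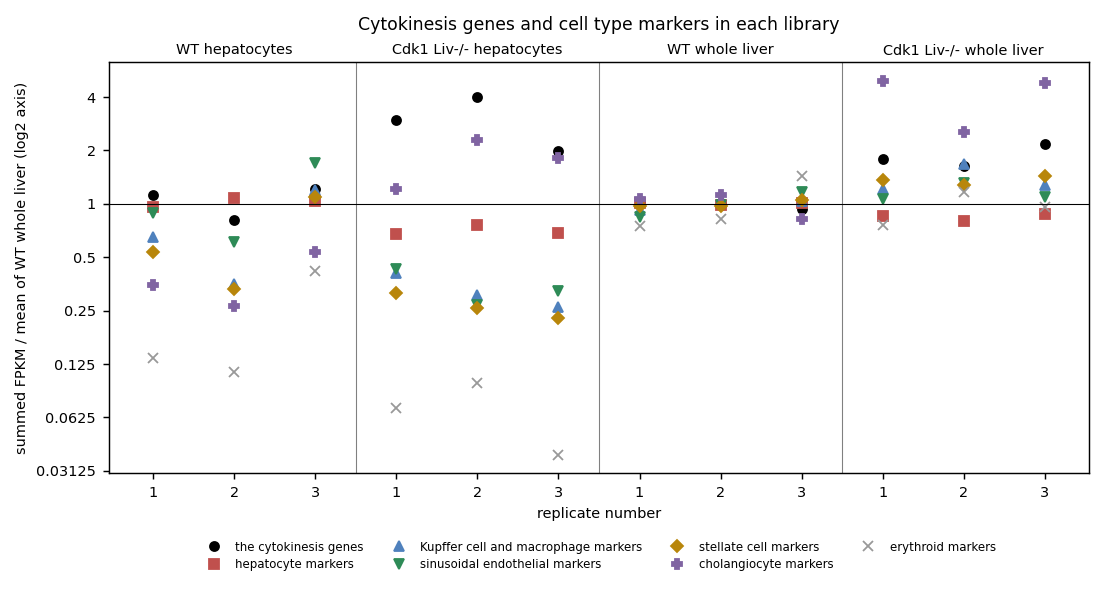
Summed FPKM of the 10 cytokinesis genes and of 6 cell type marker lists in each library, divided by the mean of the 3 WT whole liver libraries (log2 axis), with libraries in their groups. In hepatocytes the cytokinesis sum is higher and the endothelial, stellate and erythroid sums are lower in every Cdk1 Liv-/- library than in every WT library, while the Kupffer sums overlap.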

How the data were processed

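RNA of 12 mouse liver libraries was measured as FPKM per gene, and the authors deposited 1 table of FPKM values. According to the submitters' processing notes, reads were aligned with STAR to mm10 and quantified with RSEM 1.2.31. The libraries were made from polyadenylated RNA by a stranded protocol and read as single ends of 75 bp. Genes were taken by their symbol in the deposited table, and septins and other renamed genes of the lists through GENCODE M21.

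Values were taken as log2(FPKM + 0.5). The 17386 genes with a mean of at least 0.1 FPKM over the 12 libraries were tested with limma 3.58.1 in R 4.3.3, with an intensity trend, and p-values were adjusted by Benjamini-Hochberg over these genes. A call needs an adjusted p of at most 0.1 and an absolute log2 fold change of at least 1. "Rose" and "fell" stand for an adjusted p of at most 0.1. Genotypes were compared within each compartment from its 6 libraries. The interaction and the compartments within a genotype were tested in 1 fit of 12 libraries. The scripts were tested on simulated data.

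The 10 genes, the 7 pathway lists and the 9 marker lists were chosen with earlier results of these data known. The text names 4 genes of each pathway list, those at either end of its order by hepatocyte change (2 each), and the most abundant gene of each marker list. The list of chromosomal passenger complex partners holds only 2 tested genes, and these are named.

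Alternatives were other pseudocounts, filters and scalings, limma without a trend, a two-sample test with q-values, a replicate block, 1 fit of 12 libraries, and leaving out each library. Depth was read from the steps between low FPKM values, since no counts or raw reads were used. 1 further gene list and 1 marker are not reported here.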

Additional observations from a re-analysis of the deposited data

Results flagged for a closer look

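The lists hold 162 tested genes, and in 19 of them the genotype effect differed between the compartments, as it did in 3.96% of all tested genes. The interaction passed an adjusted p of 0.1 in limma there, with a difference of at least 1 in log2 fold change, hepatocytes minus whole liver. Of the 19, 12 lie among the first or last 2 of a list by hepatocyte change or are the most abundant of a marker list, and these are named here. The difference was 1.61 for Cps1. It was -1.03 for Actg1, -1.73 for Sept4, -1.57 for Adgre1, -2.06 for Marco, -1.51 for Clec4g, -2.09 for Oit3, -1.71 for Fcgr2b, -1.67 for Dcn, -2.39 for Lum, -1.12 for Ly6c2 and -1.07 for Ccr2. With any 1 of the 12 libraries left out, Cps1 passed each time. Of the 12, only 1 passed without WT whole liver library 1, without WT whole liver library 2 or without Cdk1 Liv-/- whole liver library 2, 3 without WT whole liver library 3, 8 without WT hepatocyte library 3, whose markers stand apart, and 5 without Cdk1 Liv-/- whole liver library 3, the one with Xist. Of the 19, between 1 (without WT whole liver library 1) and 19 (without WT hepatocyte library 2) passed. What makes these genes differ was not tested.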

How the results depend on the processing

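The count of cytokinesis genes called higher in hepatocytes, 7, was 4 with no filter on low values, 6 with a pseudocount of 1 or with median-ratio size factors and 4 to 8 with 1 library left out. The count past the adjusted p there, 8, was 4 with no filter and 4 to 9 with 1 library left out. With 1 hepatocyte library left out, 6.65% to 9.33% of all tested genes passed as higher, where 12.1% did with all 6. In whole liver the count called, 4, was 1 with a pseudocount of 1, 1 with median-ratio size factors and 2 to 4 with 1 library left out, and the count past the adjusted p was 8 to 10 under all alternatives. The whole liver median, 0.71, was 0.52 with median-ratio size factors. The hepatocyte median ran from 0.99 to 1.50 with 1 library left out. For the difference between compartments, 0 to 2 of the 10 passed with 1 library left out. Between WT compartments the count was 0 throughout. Between Cdk1 Liv-/- compartments 5 to 8 passed with 1 library left out and 7 with median-ratio size factors, against 6. The hepatocyte log2 fold change of Kif23, -0.0070, reversed to 0.0091 with the same sum in every library, and ran from -0.39 to 0.25 with 1 library left out (reversed at 0.03, 0.25, 0.18 and 0.19). The cause was not tested.

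With the replicate number as a block, 4 genes were called and 4 passed in hepatocytes. The libraries share only a number: over 18 pairs with the same number the correlation of residuals ran from -0.317 to 0.239, and the best partner had the same number in 9 of 36 cases.

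With 3 libraries per group, single libraries move the calls. FPKM holds no counts, so depth was estimated, and the fewest reads, about 64, are those of Cit in WT hepatocyte library 2. Whether hepatocytes and liver came from the same mice is not stated. Isolation of hepatocytes and cell makeup cannot be told apart between compartments.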
